A study of Mus musculus with 6 samples.

Results

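The translocases of the outer and inner mitochondrial membrane, TOM and TIM, were followed as a set of 25 genes. The set holds every protein-coding row of the deposited table whose symbol begins with Timm or Tomm and continues with a digit, out of 54532 genes in the table. Of the 25 genes, 22 passed the filter on low values (0.5 FPKM in 3 or more libraries) and were tested together with all 11856 genes that passed it. The samples were 3 liver libraries from mice lacking G3bp1 in hepatocytes only (HKO) and 3 from floxed litter controls that kept the gene (Flox). All mice received high-fat food (HFD) for 12 weeks, beginning at 6 weeks of age. G3BP1 binds RNA and seeds stress granules, and the study concerns its role in steatohepatitis, in which a fatty liver is inflamed. The labels name neither the Cre line behind the deletion nor the animal behind each library, so the spread behind every p-value is that between these samples and may be technical.

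Nearly all mitochondrial proteins are made in the cytosol and must be imported. The TOM complex is the common entry gate: its receptors bind arriving precursors and its channel passes them through the outer membrane. Behind it, small TIM chaperones escort hydrophobic carriers across the intermembrane space to the TIM22 complex, while the TIM23 complex and its motor draw proteins with a presequence into the matrix. Liver cells are rich in mitochondria and rely on this route for their respiratory chain and for fatty acid oxidation.

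Reads assigned to genes numbered 16499832 to 17954066 in the HKO libraries and 15804115 to 16331199 in the Flox libraries. The deleted gene G3bp1 stood at 4.66, 4.27 and 4.44 FPKM in the HKO livers, against 8.46, 8.46 and 9.10 FPKM in the Flox livers, so each library matched its label (log2 fold change -0.83, adjusted p = 0.11 in limma and 0.037 in voom). FPKM are reads divided by gene length and by a library size. That size was 1.055, 1.012 and 1.033 times the assigned reads in HKO, against 0.972, 0.934 and 1.029 times in Flox. All 7 hepatocyte markers were present, with a summed level of 37658 to 47933 FPKM in HKO and 44737 to 46086 FPKM in Flox, so the tissue matched its label. All 8 Kupffer cell markers, genes of resident macrophages, had a higher mean in HKO, with sums of 132 to 212 FPKM in HKO and 80.5 to 156 FPKM in Flox. Sums over 6 sinusoidal endothelial markers were 23.0 to 28.7 FPKM in HKO and 20.3 to 26.7 FPKM in Flox, and over 6 stellate cell markers 29.7 to 43.2 and 28.9 to 36.6 FPKM in the same order. Sums over 5 cholangiocyte markers were 27.5 to 32.1 FPKM in HKO and 25.8 to 34.0 FPKM in Flox, over 6 B and T cell markers 2.16 to 4.41 and 1.98 to 2.09 FPKM, over 3 neutrophil markers 1.42 to 3.0 and 1.43 to 5.33 FPKM (Ly6g at 0 throughout), and over 3 erythroid markers 124 to 253 and 272 to 308 FPKM. The part of these cell types in the values below was not tested.

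None of the 22 tested TIM and TOM genes passed between HKO and Flox. At an adjusted p under 0.05 in limma, 0 of 22 were called, where 0.00843% of all genes tested were, and limma's voom on recovered reads also called 0. At an unadjusted p under 0.05 there were likewise 0 of 22, where 3.08% of all genes were higher and 4.55% lower in HKO. There were 4 of 22 under TPM, where all genes shifted by 0.15, and these 4 were higher in HKO (Timm23, Timm29, Tomm20 and Timm22). There were also 4 of 22 with array weights, a fit that weights libraries by their spread. Those were Timm29, higher in HKO, and Timm17b, Tomm7 and Timm10b, lower in HKO. The weights ran from 0.422 in Flox 3 to 3.49 in Flox 1. The shares of all genes at that threshold in those fits were not computed, so the counts of 4 have no background beside them. The adjusted p of the members lay between 0.667 and 0.994 in limma. The data thus set bounds on the differences, but only on the scale tested, log2(FPKM + 1). The log2 fold change is the HKO mean less the Flox mean on that scale. Leaving aside Tomm7, each of its 95% intervals lay between -0.61 and 0.51. For Tomm7 the interval ran from -1.95 to 0.44. These limits depend on the scale and the scaling. Timm10b was at -0.14 in limma and -0.34 in voom, and the members' median was -0.049 in limma and 0.13 under TPM.

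The members did not all lie to the same side of the controls. Of the 22, 8 had a higher and 14 a lower mean in HKO, with a median log2 fold change of -0.049, where 51.2% of all genes tested had a lower mean and the median of all genes was -0.0054. The members' median was -0.12 without Flox 3 and -0.015 without HKO 2. Rescaled to TPM (a scale with the same total in every library), 5 of 22 had a lower mean, with 25.5% of all genes lower and a shift of all genes by 0.15, and 12 of 22 lay below that shift. Scaled by assigned reads, 10 of 22 were lower, with a median of 0.026 and 39.1% of all genes lower. Under quantile normalization 12 of 22 were lower, with a median of -0.0058 and 47.2% of all genes lower. The side on which most members lay thus depends on the scaling. In 3 members every HKO library lay above every Flox library, where 6.06% of all genes did so, and in 0 members every HKO library lay below, where 7.21% of all genes did so. These 3 were Tomm20, Timm23 and Timm29.

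Promoters are shown for these 3 genes and for Timm8b, the member with the highest FPKM, as RefSeq gives them on GRCm38.p6. Each sequence runs from 250 bases before to 30 bases after the annotated start, in the direction of the gene. Capitals mark matches, on either strand, to CCGGAAG, the core that ETS-family factors bind, and to GCGCA, any base, then GCGC, the core bound by nuclear respiratory factor 1. Both factor classes are known to act at promoters of nuclear genes for mitochondrial proteins.
Tomm20, chr8:126945892-126946171, minus strand: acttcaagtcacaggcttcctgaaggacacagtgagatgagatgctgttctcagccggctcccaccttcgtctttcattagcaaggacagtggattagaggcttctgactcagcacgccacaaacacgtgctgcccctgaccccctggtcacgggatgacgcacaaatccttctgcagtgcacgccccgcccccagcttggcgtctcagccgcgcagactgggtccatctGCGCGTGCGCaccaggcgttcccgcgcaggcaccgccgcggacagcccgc
Timm23, chr14:32201862-32202141, minus strand: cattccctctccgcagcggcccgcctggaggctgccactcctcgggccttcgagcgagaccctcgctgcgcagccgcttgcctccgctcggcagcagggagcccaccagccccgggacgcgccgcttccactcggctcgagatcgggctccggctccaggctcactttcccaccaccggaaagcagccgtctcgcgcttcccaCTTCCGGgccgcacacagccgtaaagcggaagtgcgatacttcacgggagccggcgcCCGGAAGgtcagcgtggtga
Timm29, chr9:21592472-21592751, plus strand: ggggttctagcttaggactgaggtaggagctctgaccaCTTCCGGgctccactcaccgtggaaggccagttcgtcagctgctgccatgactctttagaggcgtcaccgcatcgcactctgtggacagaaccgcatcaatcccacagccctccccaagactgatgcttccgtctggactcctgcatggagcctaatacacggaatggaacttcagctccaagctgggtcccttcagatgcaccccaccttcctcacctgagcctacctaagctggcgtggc
Timm8b, chr9:50603651-50603930, plus strand: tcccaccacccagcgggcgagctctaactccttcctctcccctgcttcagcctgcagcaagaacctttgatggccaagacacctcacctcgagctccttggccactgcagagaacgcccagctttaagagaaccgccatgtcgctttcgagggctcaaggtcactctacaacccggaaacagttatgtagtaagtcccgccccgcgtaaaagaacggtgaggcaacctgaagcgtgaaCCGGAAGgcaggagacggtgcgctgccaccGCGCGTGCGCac

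The 3 genes that lay above the controls did not share these letters in the same way. Tomm20 held the nuclear respiratory factor 1 core with its first base 20 bases before the RefSeq start, and no ETS core. That start lies upstream of the end of Tomm20 in the deposited table, so the distance depends on the gene model. Timm23 held the ETS core 47 bases before the start and from base 11 of the transcript. Timm29 held it at 212 bases before the start. Timm8b held both cores, near its start. A promoter was found for 22 of the 25 members, all but Tomm7, Timm21 and Tomm40l, and for 19 of the 22 tested. In windows reaching 50 bases into the transcript, the ETS core was present in 8 of these 19 genes (42.1%: Timm8b, Timm10, Timm10b, Timm23, Timm29, Tomm22, Tomm34 and Tomm70a) and in 20.7% of the 8551 tested genes with a promoter. The nuclear respiratory factor 1 core was present in 2 of the 19 (10.5%: Tomm20 and Timm8b) and in 12.0% of those genes. These matches are descriptions of letters and say nothing of binding in these livers.

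**Figure D1:**
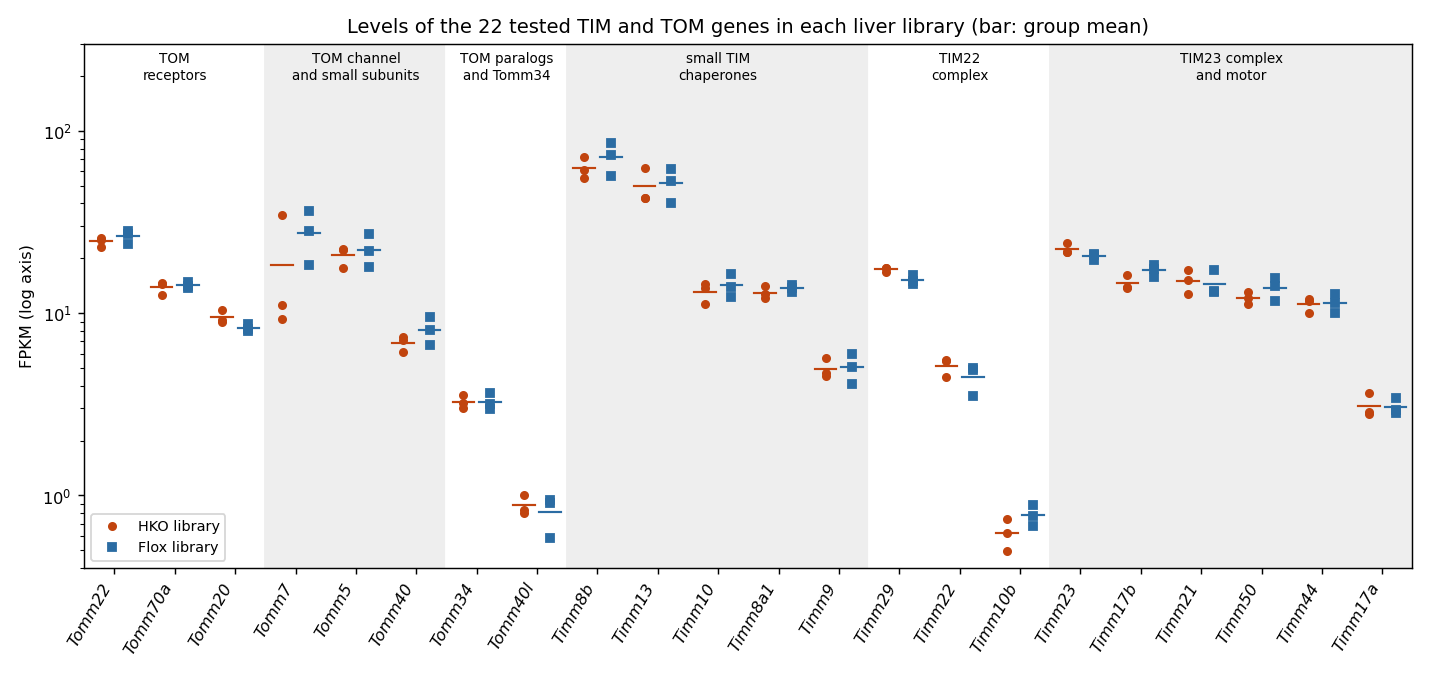
Level of each of the 22 tested TIM and TOM genes in FPKM on a log axis, with 3 HKO libraries (circles) left of 3 Flox libraries (squares) and a bar at each group's mean, grouped by role. Timm8b and Timm13 have the highest levels, Timm10b and Tomm40l lie under 1 FPKM on average, and Tomm7 has the widest spread between libraries.

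The TOM receptors bind precursors at the surface of the mitochondrion. Tomm20 (ENSMUSG00000093904, chromosome 8, 126930667 to 126945844 on the minus strand, GRCm38) recognises presequences. It stood at 9.17, 8.98 and 10.4 FPKM in the HKO livers, against 8.67, 7.99 and 8.15 FPKM in the Flox livers. The groups did not overlap, HKO 3 was highest, and HKO 2 and Flox 1 lay close together. The log2 fold change was 0.18 (95% interval -0.05 to 0.41), with an adjusted p of 0.685 in limma. An exact two-sided permutation test gave p = 0.1, and with 3 against 3 libraries it cannot give less. Groups that do not overlap always give this value, so it adds nothing to their separation. Tomm20 has a processed pseudogene, Gm14494, that is 99.5% identical over 435 bases and stood at 12.1 FPKM on average in HKO and 10.9 FPKM in Flox (72 to 112 reads in HKO and 69 to 79 in Flox), so the division of reads between the 2 is uncertain.

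The other receptors differed by less than the spread between libraries. Tomm22, the central receptor that also organises the complex, stood at 26.0, 25.3 and 23.1 FPKM in the HKO livers, against 27.3, 28.3 and 24.0 FPKM in the Flox livers. Flox 1 and Flox 2 were highest, and Flox 3 lay within the HKO range. Its log2 fold change was -0.092 (interval -0.35 to 0.16), and 0.082 under TPM. Tomm70a, which receives carriers and other precursors handed over by cytosolic chaperones, stood at 12.5, 14.7 and 14.5 FPKM in HKO, against 13.8, 14.0 and 14.8 FPKM in Flox. HKO 1 was the lowest library and the groups overlapped. HKO minus Flox came to -0.033 on the log2 scale (interval -0.27 to 0.20), and to 0.14 under TPM. With 2035 to 2622 reads per library, Tomm70a was the most deeply covered of the set.

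The channel and the 2 tested small subunits of TOM had lower means in HKO, with overlapping libraries throughout, except that Tomm5 had a higher one under TPM, after the length correction described below, without HKO 2 and without Flox 1. Tomm40, the beta-barrel that forms the pore, stood at 7.37, 6.12 and 7.14 FPKM in HKO, against 8.06, 9.52 and 6.71 FPKM in Flox. Flox 3 lay below HKO 1 and HKO 3, while Flox 1 and Flox 2 lay above all HKO livers. Its log2 fold change was -0.20 (SE 0.138, adjusted p = 0.716 in limma). It was -0.044 under TPM, -0.089 without Flox 2 and -0.31 without Flox 3. Of the exon bases of Tomm40, 5.72% are shared with an antisense transcript.

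Tomm7, a small subunit that regulates assembly of the complex and helps to retain the kinase PINK1 at the outer membrane, differed most between libraries. It stood at 34.6, 9.27 and 11.1 FPKM in HKO, against 28.4, 36.3 and 18.3 FPKM in Flox. HKO 2 and HKO 3 lay below every Flox library, and HKO 1 lay above Flox 1 and Flox 3. The log2 fold change was -0.75 (SE 0.498, adjusted p = 0.709 in limma). It was -1.31 without HKO 1 and -0.42 without HKO 2, and -1.01 without Flox 3. These values rest on 174 to 690 reads per library, and Tomm7 has no near-identical copy and no exon shared with another gene in the annotation.

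Tomm5, another small subunit, averaged 20.8 ± 2.7 FPKM in HKO and 22.3 ± 4.75 FPKM in Flox (SD, n = 3 each). Tomm6 did not reach the filter: it had 3, 1 and 1 reads in HKO and 8, 0 and 1 reads in Flox. Of its exon bases, 84.2% are shared with other annotated genes, 76.0% with Gm21981 on the same strand. A read that falls on shared bases may not have been assigned to Tomm6, so its level cannot be read from this table.

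The paralogs and the cytosolic member of the set had low levels. Tomm34, a cytosolic co-chaperone of precursors and not a subunit of the complex, averaged 3.27 ± 0.271 FPKM in HKO and 3.26 ± 0.342 FPKM in Flox (SD, n = 3 each). Tomm40l, a paralog of the pore gene, averaged 0.882 ± 0.112 and 0.810 ± 0.198 FPKM in the same order. Its exon bases are shared to 64.3% with Nr1i3, a nuclear receptor gene on the other strand. The library kit marks no strand, so reads on the shared bases could not be told apart. How such reads were assigned is not given. Tomm20l did not reach the filter and had at most 1 read in any library.

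**Figure D2:**
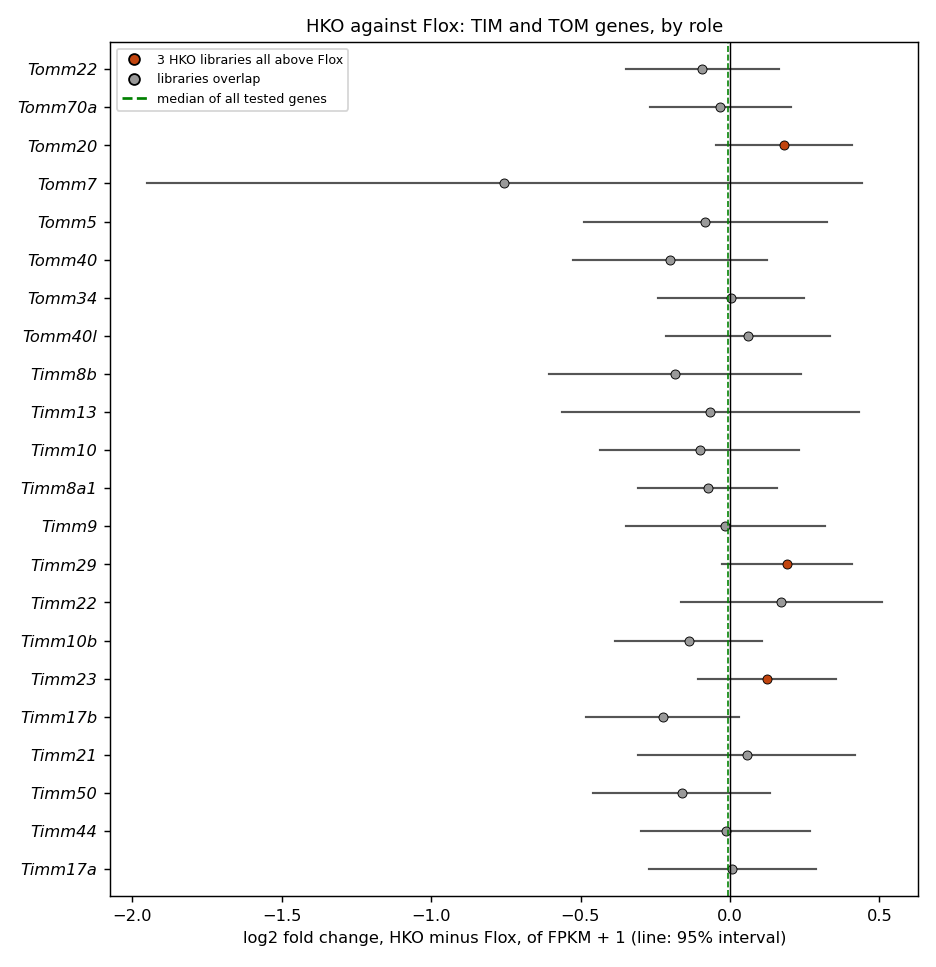
Log2 fold change of each tested TIM and TOM gene, HKO minus Flox of log2(FPKM + 1), with 95% intervals from limma and the median of all tested genes as a dashed line. Every interval includes 0; Tomm20, Timm29 and Timm23 are coloured as the genes whose HKO libraries all lay above the Flox libraries.

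The small TIM chaperones form hexameric rings in the intermembrane space that shield hydrophobic segments of carriers. Timm8b and Timm13 were the most abundant members of the whole set per length. Timm8b stood at 71.8, 61.1 and 55.5 FPKM in HKO, against 74.1, 85.5 and 56.5 FPKM in Flox, and Timm13 at 63.0, 42.8 and 43.0 FPKM in HKO, against 53.2, 62.1 and 40.3 FPKM in Flox. In both genes HKO 1, Flox 1 and Flox 2 were the 3 highest libraries, and HKO 2, HKO 3 and Flox 3 the 3 lowest. Timm8b had a log2 fold change of -0.18 (interval -0.61 to 0.24), which was -0.0066 under TPM, -0.051 without Flox 2 and -0.35 without Flox 3. That of Timm13 was -0.065 (interval -0.56 to 0.43), and 0.11 under TPM. Of the exon bases of Timm8b, 15.6% are shared with Nkapd1 on the other strand.

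The remaining chaperones differed little between the groups. Timm9 and Timm10, partners in the main chaperone ring, averaged 4.96 ± 0.625 and 13.2 ± 1.7 FPKM in HKO, against 5.05 ± 0.932 and 14.2 ± 2.06 FPKM in Flox (SD, n = 3 each). Timm8a1, the mouse counterpart of the gene mutated in human deafness-dystonia syndrome, averaged 13.0 ± 0.987 FPKM in HKO and 13.7 ± 0.669 FPKM in Flox. It has 1 pseudogene copy of the same sequence over 294 bases, Gm9797, with 17 reads at most. All 5 tested chaperones thus had a lower mean in HKO, with a median of -0.075, but 1 of 5 under TPM (Timm8b), 4 of 5 under quantile normalization, and 3 of 5 when scaled by assigned reads or corrected for length. Timm8a2, a close relative of Timm8a1, did not reach the filter, with 0 reads in each of the 3 HKO libraries and 0, 1 and 1 reads in Flox.

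The TIM22 complex inserts carriers into the inner membrane. Timm29 (ENSMUSG00000048429, chromosome 9, from 21592722 to 21595970 of GRCm38, plus strand), a subunit found in metazoans that links TIM22 with TOM, stood at 17.8, 17.8 and 16.9 FPKM in the HKO livers, against 14.5, 15.0 and 16.2 FPKM in the Flox livers. The groups did not overlap, and the 3 HKO libraries lay within 1 FPKM of each other. Its log2 fold change was 0.19 (interval -0.03 to 0.41), with an adjusted p of 0.667 in limma. The unadjusted p of 0.1 in an exact permutation test follows from the lack of overlap alone. The log2 fold change lay between 0.16 and 0.37 over 16 alternative settings.

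Timm22, the channel of this complex, stood at 5.51, 4.46 and 5.44 FPKM in HKO, against 5.03, 4.89 and 3.51 FPKM in Flox. HKO 1 and HKO 3 lay above all Flox livers, and HKO 2 lay between Flox 3 and Flox 2. On the log2 scale Timm22 differed by 0.17 (interval -0.16 to 0.51), and by 0.038 without Flox 3, its lowest library. Timm10b, a small TIM protein bound to the complex, averaged 0.619 ± 0.121 FPKM in HKO and 0.781 ± 0.105 FPKM in Flox (SD, n = 3 each), on 33 to 49 reads per library. Of its exon bases, 22.1% are shared with other annotated genes. The FPKM of Timm29, Timm22 and Timm10b together summed to 24.0, 22.9 and 22.8 in HKO, against 20.4, 20.6 and 20.4 in Flox, most of it from Timm29. In every other role group the sums of the HKO and Flox libraries overlapped.

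The TIM23 complex carries presequence proteins across or into the inner membrane. Timm23 (ENSMUSG00000013701, chromosome 14, 32180162 to 32201898 on the minus strand, GRCm38), its core channel subunit, stood at 21.7, 24.2 and 21.6 FPKM in the HKO livers, against 19.5, 21.2 and 20.9 FPKM in the Flox livers. The groups did not overlap, although HKO 3 and Flox 2 lay next to each other. Its log2 fold change was 0.12 (interval -0.11 to 0.35), with an adjusted p of 0.734 in limma. The unadjusted p of 0.1 in an exact permutation test again follows from the lack of overlap alone. Timm23 has 4 near-identical copies in the annotation, each with at most 25 reads in a library against 536 to 721 for Timm23. The protein-coding copy Gm10273 is 99.9% identical over 1121 bases, and the longest protein-coding transcript of Timm23 has 1173 bases. How reads matching both were assigned is not given, so the division of reads between Timm23 and its copies is uncertain.

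Timm17a and Timm17b are paralogs that take the same place in the complex. Timm17b was the more abundant per length in both groups, at 16.1, 13.8 and 14.0 FPKM in HKO, against 17.6, 18.4 and 15.8 FPKM in Flox. The libraries overlapped only through HKO 1, which lay above Flox 3. Its log2 fold change was -0.23 (interval -0.48 to 0.03, adjusted p = 0.667 in limma), the lowest after that of Tomm7. Timm17a, the shorter-lived of the 2 proteins in mammalian cells, averaged 3.10 ± 0.48 FPKM in HKO and 3.07 ± 0.327 FPKM in Flox (SD, n = 3 each).

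The presequence receptor Timm50 stood at 13.1, 11.3 and 12.1 FPKM in HKO, against 14.0, 15.6 and 11.7 FPKM in Flox. Flox 1 and Flox 2 lay above all HKO livers and Flox 3 lay between HKO 2 and HKO 3. Timm50 had a log2 fold change of -0.16 (interval -0.46 to 0.14), and of 0.0056 under TPM. Timm44, which tethers the motor to the channel, stood at 11.7, 10.01 and 12.0 FPKM in HKO, against 10.1, 12.7 and 11.3 FPKM in Flox, with the 2 groups spread over much the same range. Timm21, which links the complex with TOM and with the respiratory chain, averaged 15.1 ± 2.29 FPKM in HKO and 14.5 ± 2.42 FPKM in Flox (SD, n = 3 each). Its length is 1315 bases in the deposited table and 3722 bases in GENCODE M21, so its level against other members depends on the gene model. Other deposited lengths exceed the longest protein-coding transcript, as in Tomm40 (4513 against 1646 bases), Timm44 (3664 against 1790) and Timm50 (2684 against 1515). Levels of these genes against other members depend on the gene model as well.

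**Figure D3:**
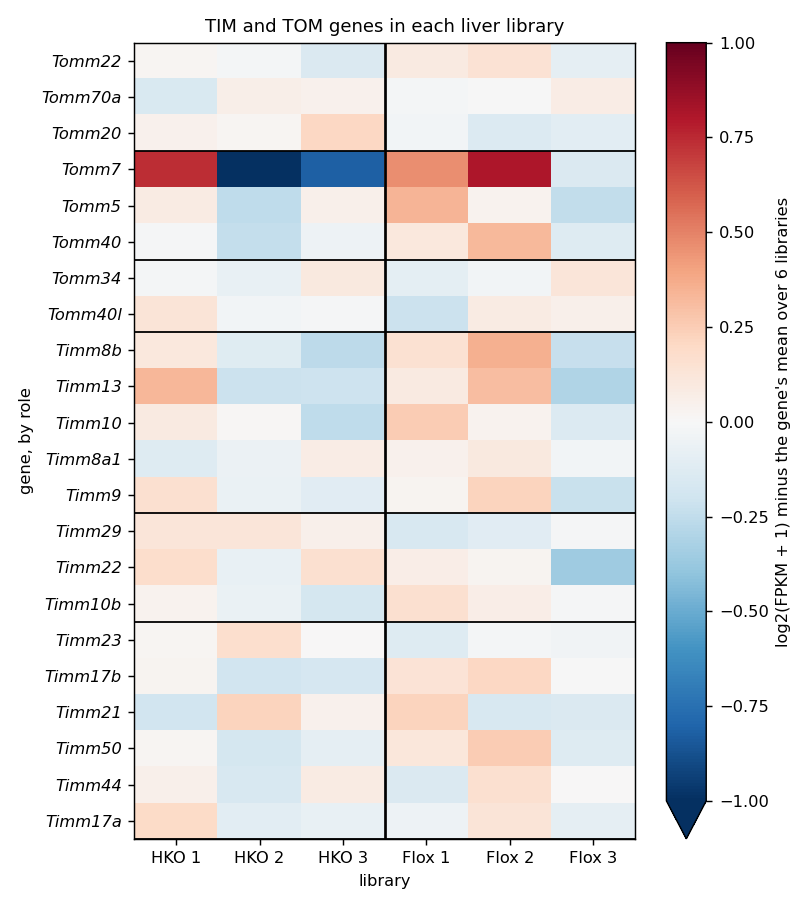
Each tested TIM and TOM gene (rows, by role) in each library (3 HKO columns left of 3 Flox columns), as log2(FPKM + 1) minus the gene's mean over the 6 libraries. HKO 1, Flox 1 and Flox 2 are mostly high in the small TIM chaperones and in Tomm7, and HKO 2, HKO 3 and Flox 3 mostly low; Tomm7 in HKO 2 lies beyond the end of the scale.

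Libraries within a group differed as much as the groups did. Flox 2 was the highest library in 9 of the 22 members and the lowest in 1, while HKO 2 was the highest in 3 and the lowest in 7. Summed over the 22 members, the FPKM were 387, 323 and 322 in HKO, against 381, 409 and 317 in Flox. HKO 1 thus lay between Flox 1 and Flox 2, and Flox 3 was the lowest of all. Without Timm8b and Timm13 the sums were 251.9, 219.3 and 223.1 in HKO, against 254.1, 261.5 and 219.8 in Flox. HKO 1 then lay below Flox 1 and Flox 2, and HKO 2 was the lowest. Each member's distance from its own 6-library mean, on the log2 scale and averaged over the 22 members, was 0.084, -0.11 and -0.071 in HKO and 0.064, 0.13 and -0.099 in Flox.

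Gene length moved with these values. The 7 tested members shorter than 1500 bases (Tomm5, Tomm7, Timm8a1, Timm8b, Timm10, Timm13 and Timm21) had a median log2 fold change of -0.083, and the 15 longer ones a median of -0.015. Timm21 counts as short only by its deposited length of 1315 bases, against 3722 bases in GENCODE M21. Timm23 counts as longer by its deposited length of 1786 bases, while its longest protein-coding transcript has 1173 bases. Over all tested protein-coding genes, the median was -0.15 for the 820 genes shorter than 1500 bases and 0.0031 for the 9614 longer ones. By library, the median of this distance over those 820 short genes was 0.094, -0.16 and -0.13 in HKO and 0.15, 0.17 and -0.11 in Flox, with the same 3 high and 3 low libraries as in Timm8b and Timm13. Spearman's rho between length and log2 fold change was 0.41 across the 22 members and 0.30 across all 10434 tested protein-coding genes, as a description, since genes share libraries. After each library was corrected for gene length by a loess curve, 11 of 22 members had a lower mean, and Tomm20, Timm23 and Timm29 had log2 fold changes of 0.18, 0.20 and 0.23. The part of transcript length in the values of single members was not tested.

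**Figure D4:**
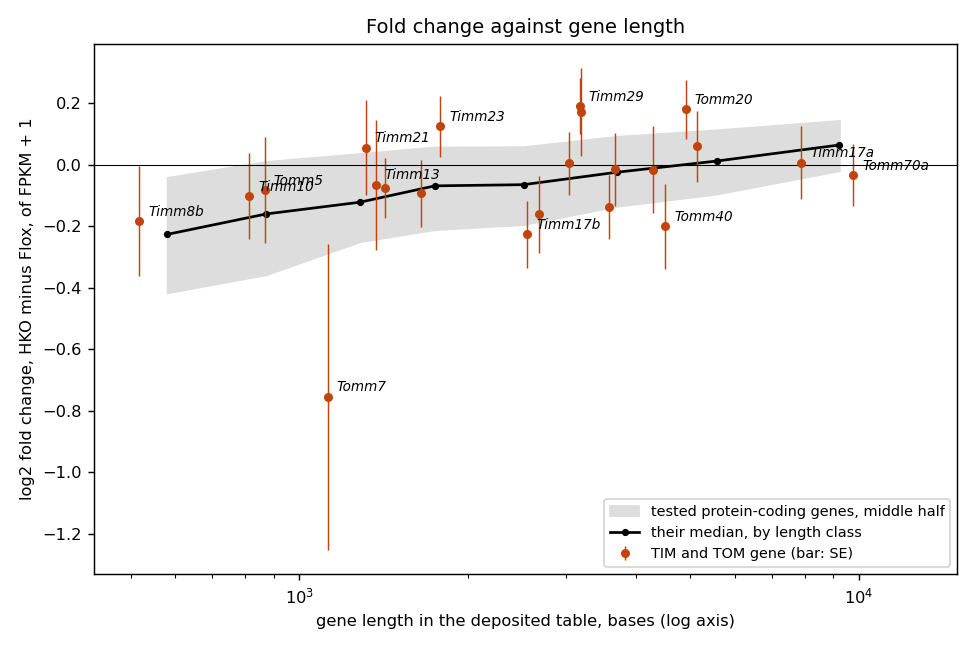
Log2 fold change (HKO minus Flox, of FPKM + 1) against gene length on a log axis for the 22 tested TIM and TOM genes (points, with SE) over the median and interquartile range of all tested protein-coding genes by length class (line and band). The median of all genes runs from -0.23 in the shortest class to 0.064 in the longest, and Tomm7 lies far below its class while Timm23, Timm29 and Tomm20 lie above theirs.

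Genes of the same route outside the TIM and TOM families were read from a list of 28 genes, all of which were tested. Of these 24 had a lower and 4 a higher mean in HKO, with a median log2 fold change of -0.12, and 0 passed in limma or in voom. At an unadjusted p under 0.05 there were 5, of which 4 were lower and 1 higher in HKO, beside 4.55% and 3.08% of all genes tested. Under TPM 13 of 28 had a lower mean, with a median of 0.026, where 25.5% of all genes were lower and all genes shifted by 0.15. Under quantile normalization and scaling by assigned reads 18 of 28 each were lower, and after the length correction 20 of 28, with a median of -0.13. In 6 of the 28 every HKO library lay below every Flox library, where 7.21% of all genes did so, and in 2 above, where 6.06% did so. Values are given for the 4 genes with the smallest p and for further genes picked after their values were seen (Pmpca, Xpnpep3, Immp1l and Romo1).

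Of the 4 genes with the smallest p, 3 encode proteases that process imported proteins. Immp2l, a subunit of the inner membrane peptidase, stood at 12.6, 11.3 and 14.7 FPKM in HKO, against 19.0, 19.6 and 15.9 FPKM in Flox, with no overlap (log2 fold change -0.47, adjusted p = 0.592 in limma). Mipep, the intermediate peptidase of the matrix, stood at 4.88, 5.95 and 7.01 FPKM in HKO, against 7.94, 8.56 and 7.58 FPKM in Flox (log2 fold change -0.39). Pmpcb, the catalytic subunit of the presequence-cleaving peptidase, stood at 19.3, 20.1 and 22.5 FPKM in HKO, against 26.1, 26.7 and 23.5 FPKM in Flox (log2 fold change -0.29). Its partner Pmpca averaged 14.9 FPKM in HKO and 14.9 FPKM in Flox. The proteases of the list did not all lie to the same side. Xpnpep3, an aminopeptidase and the fifth gene at an unadjusted p under 0.05, averaged 3.07 FPKM in HKO and 2.31 FPKM in Flox, with every HKO library above (log2 fold change 0.29, adjusted p = 0.648 in limma). Immp1l, the partner of Immp2l, averaged 20.03 FPKM in HKO and 17.8 FPKM in Flox, with overlap.

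The motor subunit gene Dnajc19, a J-protein of the inner membrane, stood at 10.99, 9.42 and 10.5 FPKM in HKO, against 14.4, 14.3 and 11.3 FPKM in Flox, again with no overlap (log2 fold change -0.34, adjusted p = 0.648 in limma). All 6 motor genes of the list had a lower mean in HKO, with a median of -0.17, but 3 of 6 under TPM, 4 under quantile normalization and 5 when scaled by assigned reads, and 6 of 6 with a median of -0.15 after the length correction. Romo1, a small subunit of the TIM23 channel, stood at 54.3, 26.9 and 29.97 FPKM in HKO, against 53.6, 72.0 and 37.8 FPKM in Flox, with the same 3 low libraries as Tomm7. Like Tomm7 it is a short gene, of 747 bases.

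Values of other nuclear genes for mitochondrial proteins are set beside those of the TIM and TOM genes. The 22 TIM and TOM genes had a median log2 fold change of -0.049, with 14 lower in HKO. The 38 nuclear complex I genes had a median of -0.20, with 37 lower, and the 77 tested mitochondrial ribosomal protein genes a median of -0.12, with 59 lower. Under TPM, where all genes shifted by 0.15, the medians were 0.13, -0.030 and 0.045 in the same order, with 5, 23 and 28 genes lower. After the length correction the medians were 0.00047, -0.14 and -0.076, with 11 of 22, 36 of 38 and 53 of 77 genes lower. The difference between the lists was not tested, and the lists differ in gene length, with medians of 2862 bases in the TIM and TOM genes, 1532 bases in complex I and 2255 bases in the ribosomal proteins. In bulk tissue, fewer cells of a type and less RNA per cell cannot be told apart, in any of these lists.

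**Figure D5:**
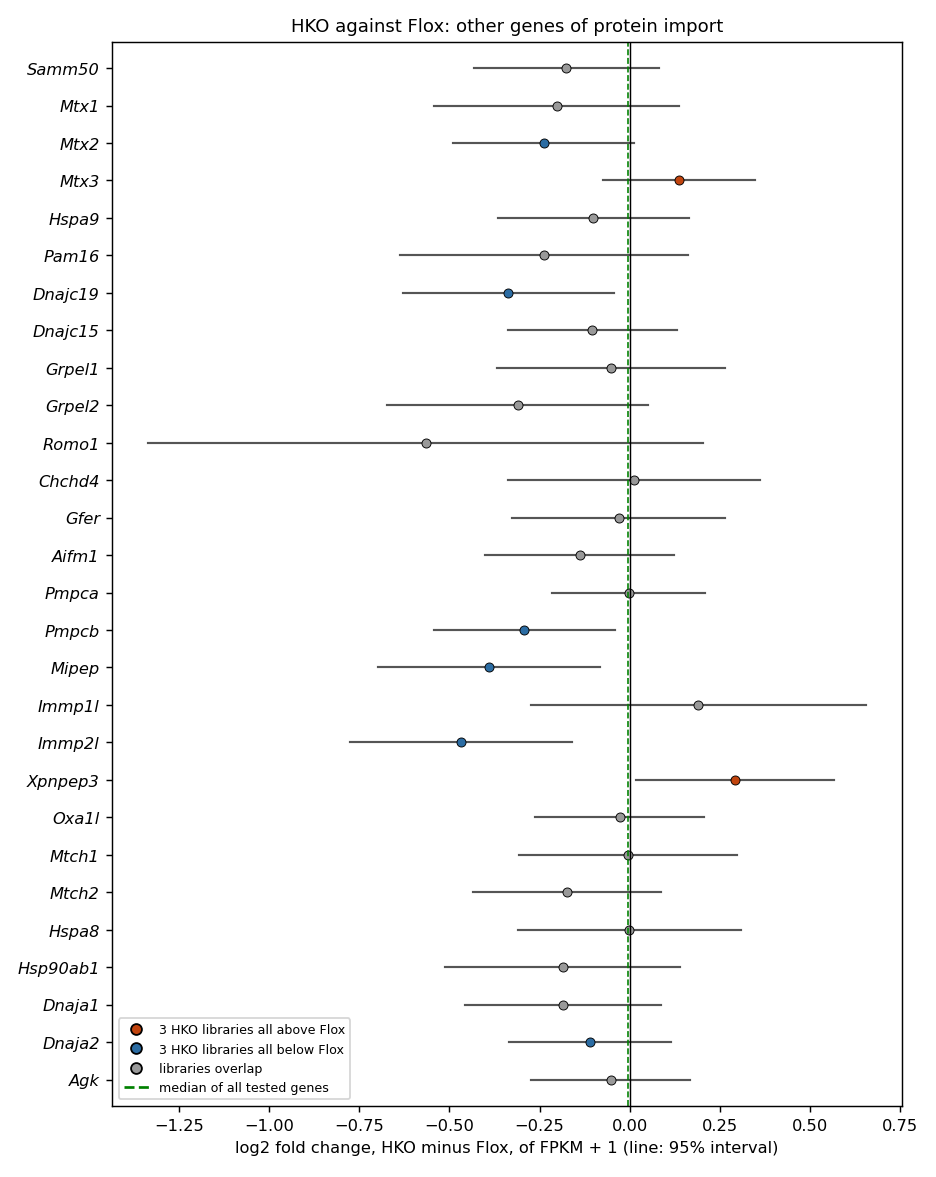
Log2 fold change (HKO minus Flox, of FPKM + 1) with 95% intervals for 28 other genes of mitochondrial protein import, with the median of all tested genes as a dashed line. In 6 genes, Immp2l, Mipep, Pmpcb, Dnajc19, Mtx2 and Dnaja2, every HKO library lay below every Flox library, and in 2, Xpnpep3 and Mtx3, above; none passed over all genes.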

How the data were processed

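RNA from 6 liver samples (3 HKO, 3 Flox) was sequenced from NEBNext Ultra libraries, per the labels' protocols. The authors deposited 1 table of FPKM values with a gene length per gene, and replicates were not pooled. Per the submitters' processing notes, the builds were GRCm38 and mm10. For aligner, counter and annotation: not given in the sources used here. FPKM times gene length gave whole reads (100% of values within 0.02 reads of a whole number), which were used for depth and for voom. At 1 kb, 1 FPKM stood for 16.7 to 18.5 reads in HKO and 14.9 to 16.8 in Flox.

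Genes that reached 0.5 FPKM in 3 or more libraries were tested on log2(FPKM + 1), with a pseudocount of 1, by limma 3.58.1 (R 4.3.3; trend, robust; two-sided; Benjamini-Hochberg over all genes, threshold 0.05). Fold changes on this scale understate those of low genes. The fit was also run on simulated counts with the same dispersion in all genes and no link to gene length. The libraries here did show such a link, so that run does not speak for the fit on these data. Exon overlaps and copies (blastn 2.17.0, identity of 97% or more over 80% or more of the shorter transcript) came from GENCODE M21, which holds 99.9% of the gene identifiers and the same coordinates for 24 of the 25 members. Members and lists were chosen with earlier results of these data known. Values in every library are given for members whose groups did not overlap or with an unadjusted p under 0.05, and in any case for Tomm20, Tomm22, Tomm70a, Tomm40, Timm22, Timm23, Timm44 and Timm50. Of the other import genes, values are given for those with the 4 smallest p. Values of Pmpca, Xpnpep3, Immp1l and Romo1 were added after they were seen. Library values of Tomm7, Timm8b, Timm13 and Timm17b were added after their values were seen.

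The 16 alternatives changed the pseudocount, the filter, the scaling (TPM, quantile, assigned reads), the length correction, the test (voom), the library weights and the replicate block, or left out 1 library.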

Additional observations from a re-analysis of the deposited data

How the results depend on the processing

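In all 16 alternative settings 0 of the tested members were called. Members at an unadjusted p under 0.05 numbered 4 under TPM and with array weights, 2 when scaled by assigned reads, without HKO 1 and without Flox 3, 1 under quantile normalization and with the length correction, and 0 in the other 9. The shares of all genes at that threshold in these settings were not computed, so the counts have no background beside them. Of the 22 members, 9 kept the sign of their fold change in each setting that tested them (Timm22 and Timm10b fell short of a mean of 5 FPKM and had 15), of which 4 were higher in HKO (Tomm20, Timm22, Timm23, Timm29) and 5 lower (Tomm7, Tomm40, Timm8b, Timm10b, Timm17b), and 13 changed sign in at least 1 setting. The filters and the replicate block leave the fold change itself as it was, so they could not change a sign. TPM raised the fold change of every member, so it could not turn a higher member lower. Under TPM, 5 members had a lower mean, their median was 0.13 and that of the other import genes 0.026; all genes shifted by 0.15 under it, by construction of the scaling. Leaving out 1 library moved the members' median between -0.12 (without Flox 3) and -0.015 (without HKO 2), and 11 to 16 of 22 were lower. Over all genes 1 passed. With a mean of at least 5 FPKM 2 passed, with voom 3 and with array weights 3. With no filter, with the length correction and with the replicate block 0 passed. With 1 library left out the count ran from 0 to 13, the highest without HKO 1, and the cause was not tested. Samples with the same replicate number showed no sign of pairing (correlations of deviations of 0.02, 0.02 and 0.07 for pairs 1, 2 and 3). Samples with different numbers gave -0.10 to 0.07. With 3 libraries per group such correlations cannot exclude a paired design. With the replicate block 0 members passed. Genes under about 1 FPKM (Timm10b, Tomm40l) rest on 33 to 92 reads, and Tomm6, Tomm20l and Timm8a2 on too few to detect a difference.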
